A study of Saccharomyces cerevisiae with 26 samples.

Results

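The regions described here are the A-rich runs of the Saccharomyces cerevisiae mitochondrial genome. They are the stretches of chrM on which RNA 3′ ends were removed from the study's tracks. An A-rich stretch of RNA just downstream can be primed by the oligo(dT) primer of reverse transcription as if it were a poly(A) tail. All entries of the deposited mask on chrM were taken, on either strand, which gave 1965 of 223663 runs, and the other 221698 runs lay on the 16 nuclear chromosomes. The study sequenced RNA 3′ ends in 26 libraries from the anchor-away strains Mex67-AA and Nab2-AA, in which rapamycin carries the tagged export factor Mex67 or the tagged poly(A)-binding protein Nab2 out of the nucleus. 12 libraries came from cells given rapamycin for 15 min and the others from cells without it. Total RNA, RNA labeled for 2 min with 4-thiouracil (4tU) and a mock purification without 4tU (Mex67-AA only) were used. Each was sequenced as pA+ RNA, or as pA+,- RNA after tails had been added with E. coli poly(A) polymerase and rRNA depleted. The mask was made from the DNA sequence and not from reads. It was the same for every library, strain and treatment, it holds no measured value, and its shares are complete counts of positions with no replicate or counting error.

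The yeast mitochondrial genome is very rich in A and T, with short GC-rich clusters scattered in long AT spacers. Nearly all of its genes lie on one strand and encode subunits of the respiratory chain and the ATP synthase, one protein of the mitochondrial ribosome, rRNAs, tRNAs and the RNA of RNase P. The RNA polymerase Rpo41, with its partner Mtf1, starts at a conserved nonanucleotide, and mRNA 3′ ends are formed just after a conserved dodecamer. Unlike nuclear mRNAs, the mitochondrial mRNAs of this yeast carry no poly(A) tails. Several introns hold reading frames for maturases and homing endonucleases.

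To show how differently the mask fell on 2 coding sequences, 150 bp of VAR1 and of COB are set side by side, with coordinates of assembly R64 (sacCer3). VAR1 encodes the ribosomal protein and COB encodes cytochrome b, a membrane protein of complex III. Both are given 5′ to 3′ on the plus strand, with masked positions in capitals. The VAR1 stretch, chrM:49354-49503, is the one with most masked positions in that gene, and the COB stretch, chrM:36540-36689, is its start.
VAR1: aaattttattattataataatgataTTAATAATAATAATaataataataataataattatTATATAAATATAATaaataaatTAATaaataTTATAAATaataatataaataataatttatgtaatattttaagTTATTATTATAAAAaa
COB: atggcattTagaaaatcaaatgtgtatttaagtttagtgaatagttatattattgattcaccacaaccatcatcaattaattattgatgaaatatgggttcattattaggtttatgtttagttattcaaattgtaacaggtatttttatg
The VAR1 stretch held 54 masked positions and the COB stretch 1. Over the whole coding sequences the mask covered 147 of 1197 positions of VAR1 (12.3%) and 3 of 1158 of COB (0.259%).

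The replication origin ORI5, chrM:82329-82600 on the plus strand, is shown because the mask fell on one of its strands only. It is given 5′ to 3′ on its annotated strand, with masked positions in capitals.
ORI5: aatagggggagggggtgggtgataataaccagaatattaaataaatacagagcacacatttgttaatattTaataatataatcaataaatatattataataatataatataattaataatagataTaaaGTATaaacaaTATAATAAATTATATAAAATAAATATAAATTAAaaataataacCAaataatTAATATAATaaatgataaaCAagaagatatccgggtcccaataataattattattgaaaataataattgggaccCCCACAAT
Its longest masked run lay in the stretch of As and Ts before the GC-rich 3′ part. A masked position stands upstream of the As that put it on the list, so that runs can begin or end in bases other than A.

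On the plus strand, which carries nearly all genes, 1137 runs covered 6252 of 85779 positions, or 7.29%. On the minus strand 828 runs covered 4949 positions, or 5.77%. The 32 strands of the nuclear chromosomes had 2.42% to 2.80% of their positions masked, so that neither mitochondrial strand overlapped them. Over both strands the masked share was 6.53% in the mitochondrial genome and 2.66% ± 0.0649 in the nuclear chromosomes (SD, n = 16 chromosomes). The mitochondrial genome made up 0.706% of all positions of the genome but held 1.71% of all masked positions. 294 mitochondrial positions were masked on both strands, and 12.7% of the genome on at least 1 strand.

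**Figure D1:**
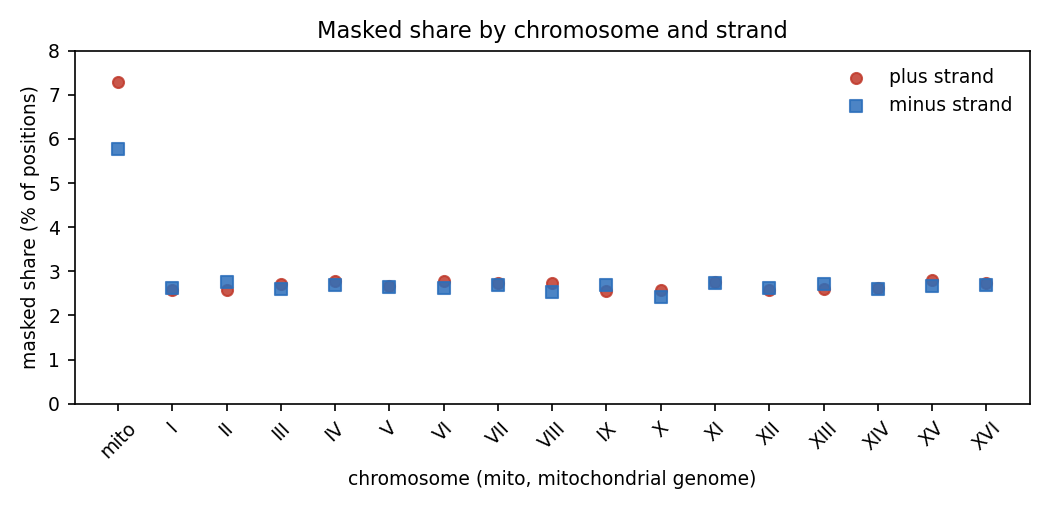
Masked share, in percent of the positions of a strand, for the mitochondrial genome and the 16 nuclear chromosomes, with circles for the plus strand and squares for the minus strand. The mitochondrial strands stand at 7.29% and 5.77%, above all nuclear strands, which lie between 2.42% and 2.80%.

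The difference between strands was also outside the nuclear range. The plus strand exceeded the minus strand by 1.52 percentage points in the mitochondrial genome, against -0.17 to 0.20 points in the nuclear chromosomes. In an exact permutation test over the 17 chromosomes, two-sided, the masked share, the strand difference, the mean run length and the number of runs per kb each gave p = 0.0588 for the mitochondrial genome against the nuclear mean, and p = 0.0588 after Benjamini-Hochberg adjustment over the 4 tests. With 1 mitochondrial genome this is the smallest p the design allows, so no result could pass 0.05, and chromosomes of different base composition are not replicates of each other.

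In the deposited mask the mitochondrial runs were both longer and more frequent, and they differed more from nuclear runs in length than in number. Runs averaged 5.50 bp on the plus strand and 5.98 bp on the minus strand, against 2.74 to 3.07 bp on the nuclear strands. Runs of 10 bp or more made up 17.2% of plus-strand and 20.5% of minus-strand runs, against 3.75% to 5.21% of the runs on nuclear strands. These longer runs held 57.4% of the masked positions of the plus strand and 62.3% of those of the minus strand, against 23.0% to 29.9% on nuclear strands. In number, the plus strand had 13.3 runs per kb and the minus strand 9.65, while nuclear strands had 8.51 to 9.56. The minus strand therefore lay just above the nuclear range in the number of runs and far above it in their length. This order rests on the filled gaps of the deposited runs. With the same limits and no gaps filled, runs averaged 3.92 bp in the mitochondrial genome and 2.67 bp in the nuclear chromosomes, with 15.4 runs per kb in the mitochondrial genome and 9.68 in the nuclear chromosomes, so that the number differed by the larger factor. With the limits worded in the methods it did so too, at 3.24 bp and 7.87 runs per kb in the mitochondrial genome and 2.36 bp and 5.13 runs per kb in the nuclear chromosomes.

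**Figure D2:**
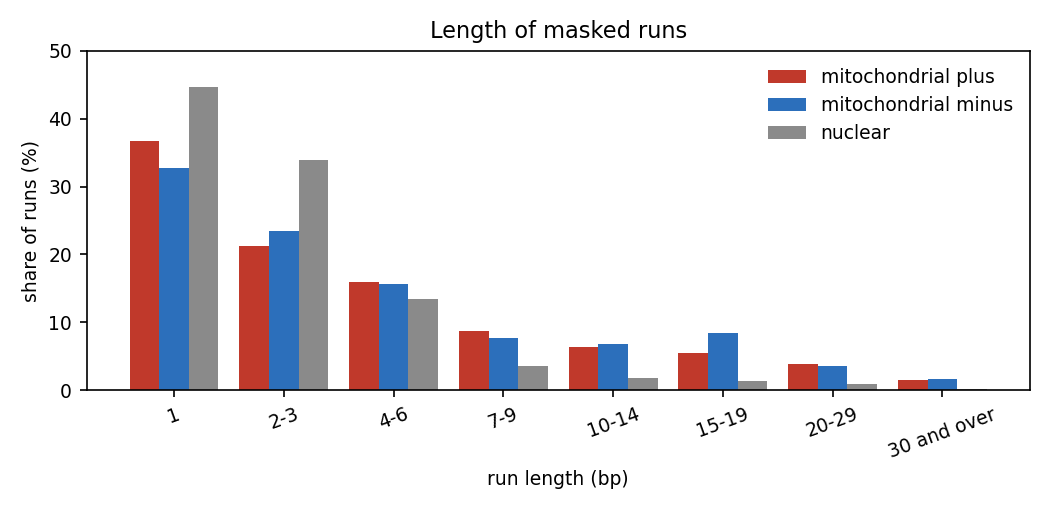
Share of runs, in percent, by run length in bp, for the mitochondrial plus strand, the mitochondrial minus strand and all nuclear runs. Runs of 1 bp were 36.8% and 32.7% of the mitochondrial plus-strand and minus-strand runs and 44.7% of the nuclear ones, and every class from 4 bp up took a larger share in the mitochondrial genome.

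Although long runs were frequent, the longest run of each mitochondrial strand lay within the range of the nuclear strands. The 5 longest plus-strand runs measured 50, 44, 44, 43 and 41 bp and the 5 longest minus-strand runs 65, 55, 48, 46 and 42 bp. The longest run of each nuclear strand measured 40 to 102 bp. Nuclear strands held 1960 to 14628 runs each, against 1137 and 828 on the mitochondrial strands, and a maximum can rise with the number of runs. Of these 10 mitochondrial runs, 7 were intergenic by the annotation. Intergenic DNA, counted with that inside the region annotated as the origin ORI6, was 58.3% of the genome. It held 69.2% of the masked plus-strand positions and 4039 of the 4949 masked minus-strand positions. So few runs cannot set the longest runs apart from other masked positions in this respect. A plus-strand run of 44 bp began 10 bp after the stop codon of OLI1, the gene of the ATP synthase c-subunit, inside the region annotated as ORI6. The minus-strand run of 42 bp also lay inside ORI6. The plus-strand run of 41 bp, at chrM:60996-61036, crossed the start of SCEI, the reading frame of the homing endonuclease in the 21S rRNA intron.

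The median gap between runs was shorter than on any nuclear strand. The median unmasked gap between neighbours was 40 bp on the plus strand and 49 bp on the minus strand, against 54 to 63 bp on nuclear strands, and 32.4% and 28.7% of the mitochondrial gaps were 18 bp or shorter, against 21.4% to 24.4% on nuclear strands. Long gaps fell mainly on the minus strand, which had 25 of 500 bp or more among 828 runs, against 6 among 1137 runs on the plus strand. The nuclear chromosomes had 5124 such gaps among 221698 runs. In proportion to runs, long gaps were thus more frequent on the minus strand than in the nuclear chromosomes, and less frequent on the plus strand. The longest unmasked stretch of the minus strand, 1387 bp at chrM:48849-50235, contained the whole of VAR1. The next were 1001 bp in 21S rRNA, reaching into SCEI, and 797 bp within AI1, the reading frame of the first COX1 intron. On the plus strand the longest were 668 bp at chrM:65831-66498, around the genes of tL(UAA)Q and tQ(UUG)Q, 649 bp across ORI3, and 561 bp in COX1, reaching into AI4. In these 6 stretches As made up 30.6% to 39.7% of the strand, below the 42.2% of the whole plus strand and the 40.7% of the whole minus strand.

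Along the genome the masked share of 85 full windows of 1 kb, over both strands, had a median of 6.45% and ranged between 0.70% and 13.4%. The plus strand was the more masked in 55 windows, the minus strand in 29, and they were equal in 1. The 3 highest windows were intergenic and differed in strand. At chrM:52001-53000, 5.80% of the plus strand and 20.9% of the minus strand was masked, at chrM:10001-11000 15.8% and 8.90%, and at chrM:3001-4000 0.70% and 21.4%. The 3 lowest windows all lay in COX1, at chrM:20001-21000, chrM:14001-15000 and chrM:16001-17000, with 0.70%, 1.95% and 2.05% over both strands.

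The kind of sequence that put a position on the list differed between the genomes. A position qualified by purine-rich DNA in the next 6 bp, with enough As and no C or T, or by enough As in the next 18 bp whatever the other bases. The methods word the limits as more than 4 and more than 12 As. The deposited mitochondrial mask was rebuilt with 0 differing positions by at least 4 and at least 12 As, after gaps of 1 or 2 positions had been filled within each criterion. Of the 11201 masked mitochondrial positions, 74.2% met the 18 bp criterion only, 12.1% the 6 bp criterion only, 5.96% both, and 7.71% neither, lying in filled gaps. Of the 644531 nuclear ones, 24.1% met the 18 bp criterion only and 63.0% the 6 bp criterion only.

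**Figure D3:**
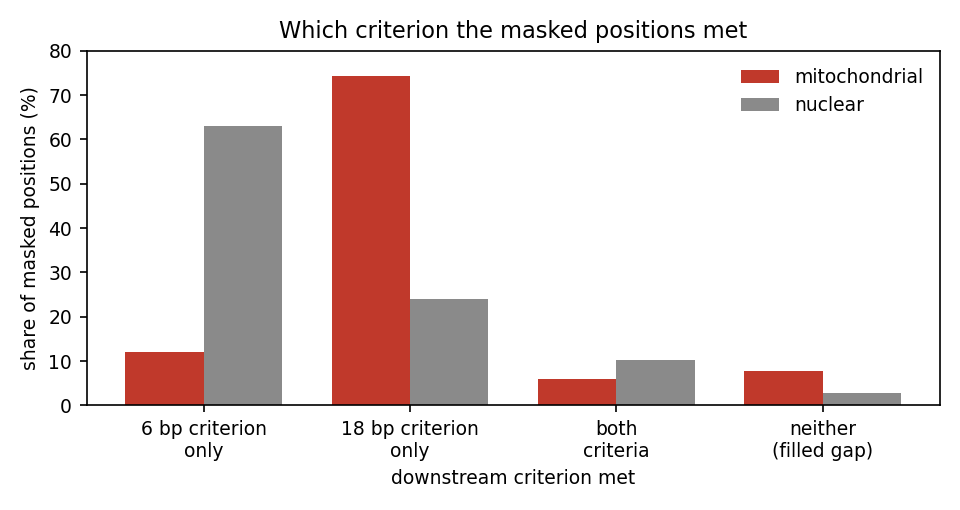
Share of masked positions, in percent, by the downstream criterion they met, for mitochondrial and nuclear positions. The 18 bp criterion alone accounts for 74.2% of mitochondrial positions and 24.1% of nuclear ones, and the 6 bp criterion alone for 12.1% of mitochondrial and 63.0% of nuclear positions.

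Counted by criterion, the direction of the comparison depended on which one was used. Masked positions that met the 6 bp criterion made up 1.18% of the mitochondrial genome, against 1.94% on average of the nuclear chromosomes. Those that met the 18 bp criterion made up 5.24% of the mitochondrial genome, against 0.914% of the nuclear chromosomes. The mitochondrial share was thus higher by the 18 bp criterion and lower by the 6 bp criterion. Runs built only from positions that met the 6 bp criterion averaged 2.06 bp in the mitochondrial genome and 2.25 bp in the nuclear chromosomes. By the 18 bp criterion they averaged 4.56 bp and 4.57 bp. The greater length of mitochondrial runs in the deposited mask was therefore not seen within either criterion. The plus strand led the minus strand under both, at 1.35% and 1.00% of the strand by the 6 bp criterion and at 5.83% and 4.64% by the 18 bp criterion.

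The mask selects positions by the bases downstream, so those bases restate this split and are no separate support for it. In the 18 bp after masked mitochondrial positions As made up 66.7%, Ts 27.8%, Gs 3.91% and Cs 1.64%, while after nuclear ones As made up 55.1%, Gs 18.2%, Ts 16.2% and Cs 10.4%. Over both strands of the whole sequence, Ts made up 41.4% and Gs 8.55% of the mitochondrial genome. In the nuclear chromosomes Ts made up 30.9% and Gs 19.1%. The next 6 bp were a mixture of only A and T after 70.9% of masked mitochondrial positions, against 5.68% of nuclear ones, and a mixture of only A and G after 12.7% of mitochondrial positions, against 65.3% of nuclear ones. Pure AAAAAA followed 5.80% of masked mitochondrial positions and 9.42% of nuclear ones. The next most frequent mitochondrial hexamers, AATAAA at 5.42% and AAATAA at 5.02%, followed 0.508% and 0.514% of the masked nuclear positions.

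At matched adenine content the mitochondrial genome was masked less than the nuclear chromosomes. Each strand was divided into windows of 100 bp and sorted by the number of As. Windows of 40 or more As made up 60.3% of the mitochondrial windows and 10.6% of the nuclear ones. With 40 to 44 As, 3.85% of positions was masked in 429 mitochondrial windows, against 7.53% in 18365 nuclear windows. With 45 to 49 As the share was 7.83% in mitochondrial windows and 13.9% in nuclear ones, and with 50 to 54 As it was 14.3% in mitochondrial windows and 24.2% in nuclear ones. Of the 9 classes with at least 20 windows in each genome, the mitochondrial share was lower in 8. The exception was 25 to 29 As, at 1.99% in 118 mitochondrial windows and 0.993% in nuclear ones. The direction at low adenine content changed with the window: with 50 bp windows the mitochondrial share was lower in 7 of 11 classes, and higher in the 4 classes below 30% A. Windows of one genome share their sequence, so these shares are a description without a test.

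**Figure D4:**
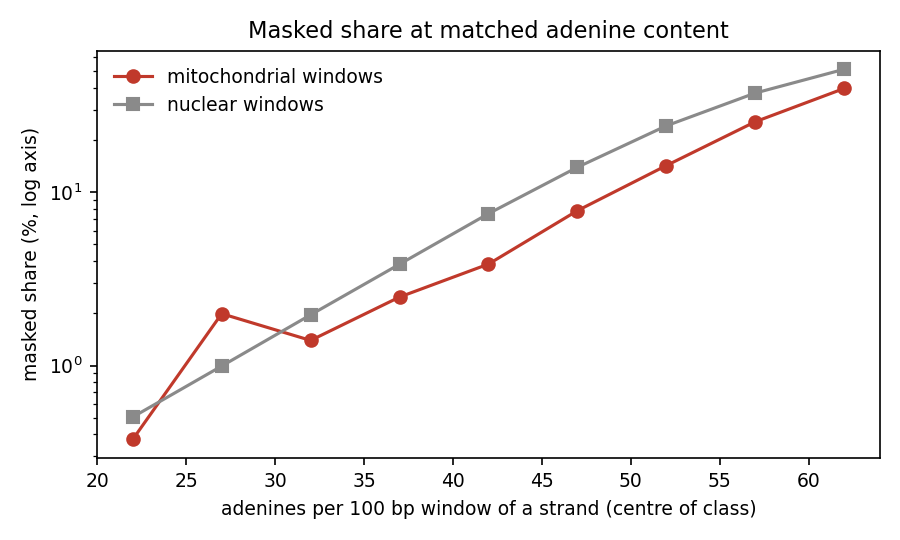
Masked share of positions, in percent on a log axis, by the number of adenines in a 100 bp window of a strand, for mitochondrial and nuclear windows, in classes with at least 20 windows each. From 30 adenines up the mitochondrial line runs below the nuclear one, at 0.511 to 0.775 times its level.

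The 8 protein genes split into VAR1 and the rest. The other 7 encode membrane subunits, COX1, COX2 and COX3 of cytochrome c oxidase, COB, and ATP6, ATP8 and OLI1 of the ATP synthase. In each of these 7 the coding strand was masked less than the opposite strand in the deposited mask. OLI1 rested on 1 against 2 positions, and its order was reversed with the limits worded in the methods. Together 0.875% of their 5487 coding positions was masked on the coding strand and 3.46% on the opposite strand. In the coding sequences of 5979 nuclear genes, 3.07% of positions was masked in sense and 1.01% in antisense, and sense exceeded antisense in 85.3% of the genes. The mitochondrial membrane proteins thus showed the opposite strand order to most nuclear genes.

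COX1, chrM:13818-26701 with its introns, had 11 of 1605 exon positions masked on the coding strand (0.685%) and 44 on the opposite strand (2.74%). COB, chrM:36540-43647, had 3 of 1158 (0.259%) and 49 (4.23%). ATP8, chrM:27666-27812, had 0 of 147 and 9 (6.12%). Over the 7 genes As made up 30.7% of the coding strand and Ts 41.3%, and 98.2% of nuclear coding sequences were masked more than COB.

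COX2, chrM:73758-74513, had 8 of 756 positions masked on the coding strand (1.06%) and 40 on the opposite strand (5.29%). COX3, chrM:79213-80022, had 10 of 810 (1.23%) and 19 (2.35%). OLI1, chrM:46723-46953, had 1 of 231 (0.433%) and 2 (0.866%). ATP6, chrM:28487-29266, had 15 of 780 (1.92%) and 27 (3.46%), the highest coding-strand share of the 7.

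VAR1, chrM:48901-50097, went the other way. 147 of its 1197 positions were masked on the coding strand (12.3%), in 22 runs of up to 38 bp, and 0 on the opposite strand. Its coding-strand share was above that of 99.2% of nuclear coding sequences. As made up 50.4% of its coding strand, against 28.6% to 34.1% in the other 7 genes. Codons of asparagine (AAT, AAC) made up 31.8% of VAR1 and those of lysine (AAA, AAG) 9.52%, so that together they were 41.4% of its codons, against 4.07% to 7.31% in the other 7 genes.

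The 10 intron reading frames sided with VAR1. Counting only the intron part of each frame, all 10 were masked more on the coding strand than on the opposite strand. Together 6.45% of their 12398 positions was masked on the coding strand and 1.27% on the opposite strand, and the introns outside these frames had 6.34% and 3.45%. The 3 highest were AI5_ALPHA at 10.2%, BI2 at 9.25% and AI4 at 8.41% of the coding strand, with 0.651%, 1.42% and 0.946% on the opposite strand. The 3 lowest were AI2 at 3.81%, BI4 at 5.68% and AI1 at 6.16%, with 0.932%, 1.89% and 0.300% on the opposite strand. Lysine and asparagine codons made up 18.3% to 24.8% of the intron frames. Within one transcription unit, COX1 therefore alternated between exons with 0.685% masked and intron frames with 3.81% to 10.2% masked on the same strand. Q0255, a free-standing reading frame that overlaps the end of COX2, had 5.85% on the coding strand and 1.90% on the opposite strand, with 27.5% lysine and asparagine codons. The 19 reading frames fell into groups by codon content, so that no correlation over all of them is given. Among the 10 intron frames and Q0255 the masked share of the coding strand and the share of lysine and asparagine codons had a Pearson r of 0.21 and a Spearman rho of 0.045 (n = 11), a description across genes that share one genome and its base composition. BI4, with 24.8% of these codons, had 5.68% masked, and AI5_ALPHA, with 22.8%, had 10.2%.

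**Figure D5:**
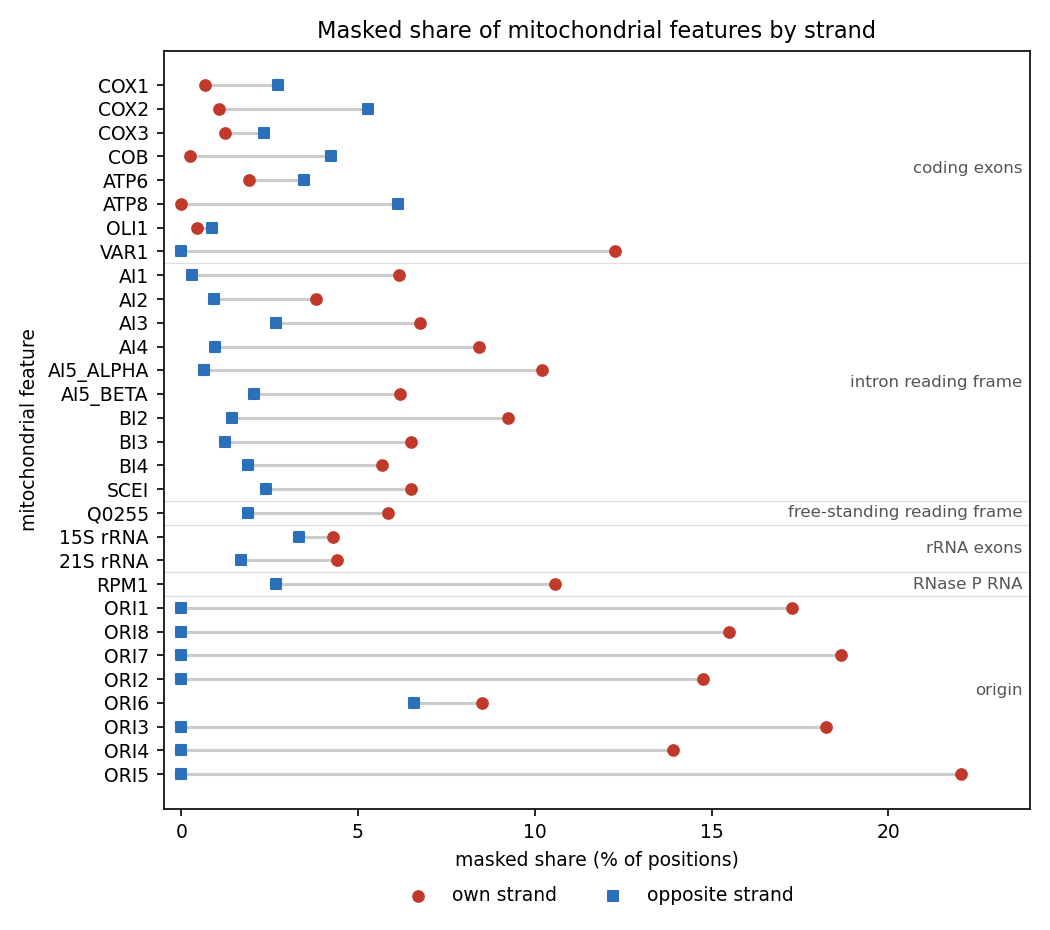
Masked share, in percent of positions, of mitochondrial features other than tRNA genes, with circles for the feature's own strand and squares for the opposite strand. The 7 membrane protein genes lie at 1.92% or less on their own strand, with the opposite strand above it, and VAR1, the intron reading frames, the RNAs and the origins lie higher on their own strand.

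The rRNAs and the RNase P RNA were masked more on their own strand than on the opposite one. 15S rRNA, the small ribosomal RNA, at chrM:6546-8194, had 71 of 1649 positions masked on its own strand (4.31%) and 55 on the opposite strand (3.34%). 21S rRNA, the large one, at chrM:58009-62447, had 145 of 3296 exon positions (4.40%) and 56 (1.70%). RPM1, the RNA subunit of RNase P, at chrM:85295-85777, had 51 of 483 (10.6%) and 13 (2.69%), so that its own strand was masked more than that of either rRNA.

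The tRNA genes held few masked positions, most of them near their 3′ ends. Of the 24 genes, 7 had a masked position on their own strand and 17 had none, while 21.5% of 275 nuclear tRNA genes had one. Over all 24 genes 2.34% of the own strand and 0.761% of the opposite strand was masked, below the shares of the whole mitochondrial genome, and the own-strand share of nuclear tRNA genes was 0.469%. The 3 highest were tT(UGU)Q1 at 17.1%, tT(UAG)Q2, the only tRNA gene on the minus strand, at 14.9%, and tW(UCA)Q at 6.76%. The 3 lowest, taken in genome order among those without a masked position, were tE(UUC)Q, tS(UGA)Q2 and tL(UAA)Q. Of the 43 masked tRNA positions, 37 lay in the last 18 nt of the gene, where the 18 bp downstream window passes the gene's end. Of these 37, 13 were in tT(UGU)Q1 and 11 in tT(UAG)Q2. Why they lay there was not tested. Both threonine tRNA genes are shown with the 18 bp after them, 5′ to 3′ on their own strand, tT(UGU)Q1 at chrM:63862-63955 and tT(UAG)Q2 at chrM:78071-78162, with masked positions in capitals.
tT(UGU)Q1: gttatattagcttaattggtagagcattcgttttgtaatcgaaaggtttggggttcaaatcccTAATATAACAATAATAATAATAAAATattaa
tT(UAG)Q2: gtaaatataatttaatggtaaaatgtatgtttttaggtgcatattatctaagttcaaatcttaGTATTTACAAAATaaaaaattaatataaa
In tT(UGU)Q1 the masked run began at nt 64 of 76 and went on past the gene's end, and in tT(UAG)Q2 it began at nt 64 of 74. The last base was masked in these 2 genes and in tC(GCA)Q and tH(GUG)Q, which makes 4 of 24 tRNA genes, where 6.53% of all mitochondrial positions were masked. A count this small cannot tell the ends of tRNA genes from other positions.

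The origins had the largest strand difference of the classes of features, at 17.3 percentage points without ORI6. 8 are annotated, 4 on each strand. In the 7 of 266 to 375 bp, 13.9% to 22.1% of the own strand was masked, 351 of 2030 positions in all, and 0 positions on the opposite strand. ORI5 was highest, with 60 of 272 positions, and ORI4 lowest, with 37 of 266. As made up 47.7% to 51.7% of their own strand and Ts 27.2% to 34.1%. This held for the origins annotated on the minus strand (ORI1, ORI3, ORI4 and ORI8) as well as for ORI2, ORI5 and ORI7 on the plus strand. Whether these origins share their sequence was not examined, so they cannot be counted as independent cases. ORI6 stood apart: it is annotated over 2701 bp, which include OLI1, and had 8.52% on its own strand and 6.59% on the opposite strand. The other intergenic DNA, including that within the region annotated as ORI6, was 58.3% of the genome. It had 8.65% of the plus strand and 8.07% of the minus strand masked, and held 69.2% of the masked plus-strand positions.

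RNA 3′ ends of protein genes were examined at the dodecamer. The last 9 letters, AATATTCTT, were searched on both strands, with overlapping matches counted, and occurred 15 times on the mitochondrial plus strand and 5 times on the minus strand. These were 0.0175% and 0.00583% of all 9 bp windows, against 0.00274% of plus-strand and 0.00252% of minus-strand nuclear windows. The shares were not adjusted for base composition. Over both strands As and Ts each made up 41.4% of the mitochondrial genome and 30.9% of the nuclear chromosomes, and the motif is mostly A and T. 11 of the 20 matches were preceded by the letters that complete AATAATATTCTT, 9 on the plus strand and 2 on the minus strand. The 9 plus-strand matches followed COX1, ATP6, COB, VAR1, COX2, COX3, Q0255, AI5_BETA and SCEI, at 7 bp (SCEI) to 591 bp (VAR1) after the stop codon. Their last base was masked after COX1 and COX2 and not after the other 7, where 7.29% of all plus-strand positions were masked. Counts this small cannot tell these sites from other positions of the strand. The matches after the 4 genes below are given with the 18 bp downstream, masked positions in capitals, because the mask differs among them although the first 12 letters are the same.
COX1, chrM:26770-26799: aataatattCTTATAAAAATATATAAAAaa
COX2, chrM:74576-74605: aataatattctTaaatataataaagatata
COB, chrM:43745-43774: aataatattcttaaaaataatatatctcta
COX3, chrM:80123-80152: aataatattcttacaaatataattattata
After COX1 the mask covered 19 of the 30 positions, so that any 3′ end on the last 3 letters of the dodecamer or in the 16 positions that follow was removed. After COX2 it covered 1 position, and after COB and COX3 0. At the annotated last base of 11 RNA and protein genes, the 8 protein genes, the rRNAs and RPM1, only that of ATP6 was masked, 1 of 11, where 7.29% of all plus-strand positions were masked. For the 8 protein genes this base is the end of the coding sequence and not the RNA 3′ end. RPM1 ends at position 85777 of 85779, where too few bases follow for either criterion to be met.

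The promoter nonanucleotide, searched as ATATAAGTA on both strands, occurred 11 times on the plus strand and 3 times on the minus strand. These were 0.0128% and 0.00350% of the 9 bp windows, against 0.00118% and 0.000911% of the nuclear ones, again without adjustment for base composition. The last base was masked in 1 of the 14, at chrM:34886, where 6.53% of all mitochondrial positions were masked. The match at position 58008 ended just before the annotated start of 21S rRNA at 58009, and the next masked position was 2 bp downstream. Matches also ended at the first base of ORI5 (82329) and, on the minus strand, at the first base of ORI3 (54840). The next masked position lay 70 bp downstream at ORI5 and 130 bp downstream at ORI3. A match of letters is a description of the sequence and does not show that a site is used.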

How the data were processed

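The data were a list of genomic positions. In it, the authors deposited start and end positions of masked runs by strand, with a score of 0 in every row and no other measured value, so that neither read depth nor normalization enters here. They selected the positions from the sacCer3 sequence by As downstream of each position, and removed them from the 3′ end tracks with bedtools. The tracks of the 26 libraries were not analysed here, and 0 columns of other per-sample values were used.

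Run ends were read against RefSeq assembly R64, the sequence of sacCer3, with its annotation. Shares are counts of positions over the positions of a feature on 1 strand. The mitochondrial genome was compared with the mean of the 16 nuclear chromosomes by exact permutation, two-sided, for 4 values adjusted by the Benjamini-Hochberg method. Features were described without a test. Alternatives were other criteria, run filters, joined runs, chromosome ends left out and 50 bp windows.

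Named were the 8 protein genes, the rRNAs, RPM1, the 3 highest and 3 lowest intron frames and tRNA genes by own-strand share, the 5 longest runs and 3 longest unmasked stretches per strand, and the 3 highest and 3 lowest windows of 1 kb. Other features named, and the sequences printed, were picked with their values in view. The members and all lists were chosen with earlier results of these data known. Calculations used Python 3.11.15, numpy 2.4.6 and scipy 1.17.1, and figures matplotlib 3.10.9. The criteria were checked against a loop on simulated sequence.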

Additional observations from a re-analysis of the deposited data

How the results depend on the processing

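Under 7 alternatives, the 4 tested differences kept their direction in 24 of 28 cases. With the deposited positions that met the 6 bp criterion the mitochondrial minus nuclear difference turned negative for the masked share (-0.765 percentage points), the mean run length (-0.183 bp) and the runs per kb (-2.94). With those that met the 18 bp criterion it was slightly negative for the mean run length (-0.0112 bp). The mitochondrial mean of 4.56 bp then lay inside the range of the nuclear chromosomes, 4.33 to 4.98 bp, so this was hardly a difference. The plus-strand excess kept its direction under every alternative run. The cause was not tested. With the mask recomputed from the written limits, more than 4 and more than 12 As, the masked share was 2.55% in the mitochondrial genome and 1.21% in the nuclear chromosomes, and the plus minus minus strand difference 0.564 percentage points in the mitochondrial genome and 0.0120 in the nuclear chromosomes. Own-strand shares were then 0.182% in the 7 membrane protein genes, 2.70% in intron reading frames, 4.24% in the origins without ORI6, 3.33% in other intergenic DNA and 3.51% in VAR1. The 7 membrane protein genes together had 0.966% on the opposite strand. Among named features other than tRNA genes, the strand order reversed in OLI1 and ORI6. OLI1 then had 0.433% on its own strand and 0% on the opposite strand, and ORI6 had 2.74% and 3.18%. With 50 bp windows the ratio of mitochondrial to nuclear share was 0.558 at 35 to 39% A, 0.452 at 40 to 44% A and 0.633 at 50 to 54% A, against 0.646, 0.511 and 0.590 with 100 bp windows. No paired analysis was possible because the mask holds no samples, and with 1 mitochondrial genome no test could pass 0.05. The list gives no signal, so the number of 3′ ends removed at any run was not measured.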
